A study of Mus musculus with 6 samples.

Results

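The kinesin motor genes of mouse CD8+ T cells were examined in cells expanded under cytokine conditions that give either an effector (TEff) or a tissue-resident memory-like (TRM-like) state. The set was every protein-coding gene of the count table whose symbol begins with Kif followed by a digit, which gave 40 of the 57126 genes listed. Roles were assigned from background knowledge, with earlier results of these data already known. By role, 7 were the mitotic kinesins Kif11, Kif15, Kif20a, Kif23, Kif2c, Kif4, and Kif18b, 7 were other division kinesins, 13 were transport kinesins, and 12 act in cilia, signalling, or other processes. The remaining gene, Kif4-ps, bears a name derived from Kif4, and its likeness to Kif4 was not checked. The annotation types it as protein-coding, and it had between 0 and 2 counts per sample.

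All 6 samples were OT-I CD8+ T cells, which carry a transgenic receptor for an ovalbumin peptide and came from lymph nodes and spleens. Every sample was stimulated with nanoparticle artificial antigen-presenting cells (nano-aAPCs), dextran-coated iron oxide particles bearing the peptide-loaded class I molecule and anti-CD28, and was harvested on day 6. The 3 TEff samples grew with IL-2, and the 3 TRM-like samples received IL-15 and TGF-β on top of IL-2, so that the parts of the added cytokines cannot be told apart. The comparison asks how the motor gene programme of cells expanded toward the resident memory state differs from that of effector cells. The labels do not say whether replicates came from separate mice or cultures, so the p-values below measure the spread between these samples, which may be technical.

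Kinesins are motor proteins that use ATP to walk along microtubules, mostly toward the plus end, or to take microtubule ends apart. One branch of the family builds the mitotic spindle, moves chromosomes, and completes cytokinesis, and its genes are transcribed mainly in the late part of the cell cycle, so that their RNA is abundant in dividing T cells and scarce in resting ones. Another branch carries mitochondria, endosomes, lytic granules, and other vesicles along microtubules in dividing and resting cells alike, with several members that act chiefly in neurons.

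Promoter sequences are shown first because many late cell cycle genes carry the cell cycle homology region (CHR) element, searched here as TTTGAA, downstream of CCAAT boxes. Each promoter was taken around the start of the Ensembl canonical transcript of the gene in GRCm39, which for some genes, such as Kif1b, is not the outermost annotated start. It ran from 250 bases before to 50 after that start, 300 bases in all, and both strands were searched. The mitotic kinesins held TTTGAA in 5 of 7 promoters (71.4%), the other division kinesins in 2 of 7 (28.6%), and the transport kinesins in 0 of 13, against 17.0% of all 21685 protein-coding promoters. CCAAT was present in 4 of 7 mitotic and 4 of 13 transport promoters (57.1% and 30.8%), against 40.0% of all promoters. Below are the bases from 70 before to 30 after the start, in the direction of transcription, with TTTGAA and CCAAT on either strand in capitals (TTCAAA and ATTGG where the match lies on the opposite strand). The first 4 are mitotic kinesins with TTTGAA, Kif2c is a mitotic kinesin without it, and Kif3b is a transport kinesin.
Kif11, chr19:37364729-37364828, forward strand: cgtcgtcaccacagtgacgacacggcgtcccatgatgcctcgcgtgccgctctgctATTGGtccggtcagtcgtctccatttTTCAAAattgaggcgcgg
Kif15, chr9:122780041-122780140, forward strand: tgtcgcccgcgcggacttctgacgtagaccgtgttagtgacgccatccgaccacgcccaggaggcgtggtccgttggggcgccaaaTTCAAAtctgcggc
Kif18b, chr11:102815927-102816026, reverse strand: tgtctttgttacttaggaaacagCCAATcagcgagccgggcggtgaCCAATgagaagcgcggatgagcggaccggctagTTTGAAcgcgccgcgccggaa
Kif23, chr9:61854044-61854143, reverse strand: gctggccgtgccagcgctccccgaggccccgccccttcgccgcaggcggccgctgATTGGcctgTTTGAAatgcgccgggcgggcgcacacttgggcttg
Kif2c, chr4:117039807-117039906, reverse strand: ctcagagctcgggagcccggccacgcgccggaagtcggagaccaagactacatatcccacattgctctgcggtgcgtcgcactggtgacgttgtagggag
Kif3b, chr2:153133255-153133354, forward strand: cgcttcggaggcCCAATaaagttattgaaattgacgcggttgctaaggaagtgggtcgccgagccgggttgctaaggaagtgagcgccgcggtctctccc
In the 100 bases shown, Kif11, Kif18b, and Kif23 held both motifs in the order CCAAT then TTTGAA, Kif15 held TTTGAA alone, Kif3b held CCAAT alone, and Kif2c held neither. No CCAAT match overlapped a TTTGAA match in any kinesin promoter. TTTGGCGC, one form of an E2F site, was found in the Kif15 promoter among the mitotic kinesins and in 0.678% of all promoters, and the other form searched, TTTCCCGC, was found in 0 of 7 mitotic promoters and 1.36% of all. CAGAC, which contains the short SMAD-binding letters of the TGF-β pathway, was in 4 of 7 mitotic, 8 of 13 transport, and 48.5% of all promoters. These matches describe letters in a window and not bound sites.

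Total counts lay between 18319013 and 23622621 per sample. TRM-like replicates 1 and 2 had counts in 35130 and 35559 genes, whereas the other 4 samples had counts in 24229 to 24908. Over 14822 well-counted genes, TRM-like replicate 3 differed less from TEff replicates 1 and 3 (chi-square per gene 41.9 and 37.4) than from TRM-like replicates 1 and 2 (96.3 and 112). Results that rest on this sample are therefore given with and without it. The 10 T cell marker genes (T cell receptor, CD3, and CD8 chains, Cd2, and Lck) were each at 94 CPM (counts per 1000000 of the TMM-scaled library) or more in every sample, while among 19 markers of other cells Cd4 was at most 0.111 CPM and Lyz2 was at 0 in all samples but TRM-like replicate 2, where it was 0.612 CPM. The highest of these markers were Pecam1, at 19.3 to 63 CPM, and the NK cell gene Klrb1c, at 9.79, 21.9, and 11.8 CPM in TEff and 8.55, 6.68, and 0.0922 CPM in TRM-like samples. The B cell gene Cd79b had 4.57 to 8.39 CPM and the epithelial gene Epcam 1.82 to 3.98 CPM, and the other 15 were at 2.02 CPM or less. The markers of other cells summed to 67.9 to 96.3 CPM in TEff and 30.1 to 65 CPM in TRM-like samples, and the T cell markers to 4970 to 5200 and 4690 to 7280 CPM. In bulk RNA, fewer cells of a type and less RNA per cell cannot be told apart.

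The kinesins together took 2330, 1950, and 2310 CPM in TEff replicates 1, 2, and 3 and 1650, 1560, and 2310 CPM in TRM-like replicates 1, 2, and 3. The 7 mitotic kinesins accounted for most of that spread, with 1190, 789, and 1200 CPM in TEff and 661, 612, and 1200 CPM in TRM-like samples. The other division kinesins summed to 416, 317, and 425 CPM in TEff and 258, 225, and 440 CPM in TRM-like samples. The transport kinesins summed to 435, 445, and 416 CPM in TEff and 462, 461, and 467 CPM in TRM-like samples, a narrow range beside that of the division genes.

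Per gene length, the levels over all 6 samples were led by motors of the spindle. Kif11 averaged 70.6 FPKM (CPM per kilobase of gene length), Kif22 46.1, Kif15 33.9, Kif20a 25.7, Kif2c 25.3, Kif23 24.1, Kif4 21.4, and Kif18b 19.2 FPKM. Only 2 kinesins outside division were in this range, Kif21b at 29.9 FPKM and Kif5b at 29.5 FPKM. The next transport kinesins were Kif1c at 8.66 FPKM, Kif3b at 7.42, Kif13b at 6.70, and Kif16b at 5.24 FPKM, and Kif1b averaged 2.45 FPKM. Kif20a shares 54.8% of its exonic bases with Cdc23 and Kif2a 41.1% with Dimt1, both on the opposite strand, and since the strand setting of the counting is not stated, reads there cannot be assigned to one gene with certainty.

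Differences between the groups were tested with edgeR's quasi-likelihood test and Benjamini-Hochberg adjustment over 26154 genes, and 3.01% passed the threshold, an adjusted p below 0.05 together with a log2 fold change larger than 0.58 in size. Of the 40 kinesins, 33 had enough counts to be tested and 1 passed, Kif1b, which was higher in TRM-like cells. The share of all tested genes that was higher was 1.52% and the share that was lower was 1.48%. Of the tested kinesins, 11 had a positive and 22 a negative log2 fold change of TRM-like against TEff, with a median of -0.21. All 26154 genes tested split into 13455 positive and 12699 negative values, with a median of 0.02. DESeq2 and limma-voom each also called Kif1b and no other kinesin.

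Kif1b, which moves mitochondria and vesicle precursors toward microtubule plus ends, had 24, 30.5, and 23.4 CPM in TEff and 51.1, 45.2, and 49.1 CPM in TRM-like samples. Every TRM-like sample was above every TEff sample, and TRM-like replicate 3 lay with the other TRM-like replicates. The mean was 26.0 ± 3.95 CPM (SD, n = 3) in TEff and 48.5 ± 2.99 CPM (SD, n = 3) in TRM-like cells, a fitted 1.87-fold rise (log2 fold change 0.90, SE 0.14, edgeR adjusted p = 0.0116). Kif1b (ENSMUSG00000063077) lies at chr4:149260618-149410343 on the reverse strand of GRCm39, and gene-level counts sum all of its isoforms. Its log2 fold change was 0.88 without TRM-like replicate 3, but the adjusted p was 0.0974 without TEff replicate 1 and 0.0908 without TEff replicate 3.

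**Figure D1:**
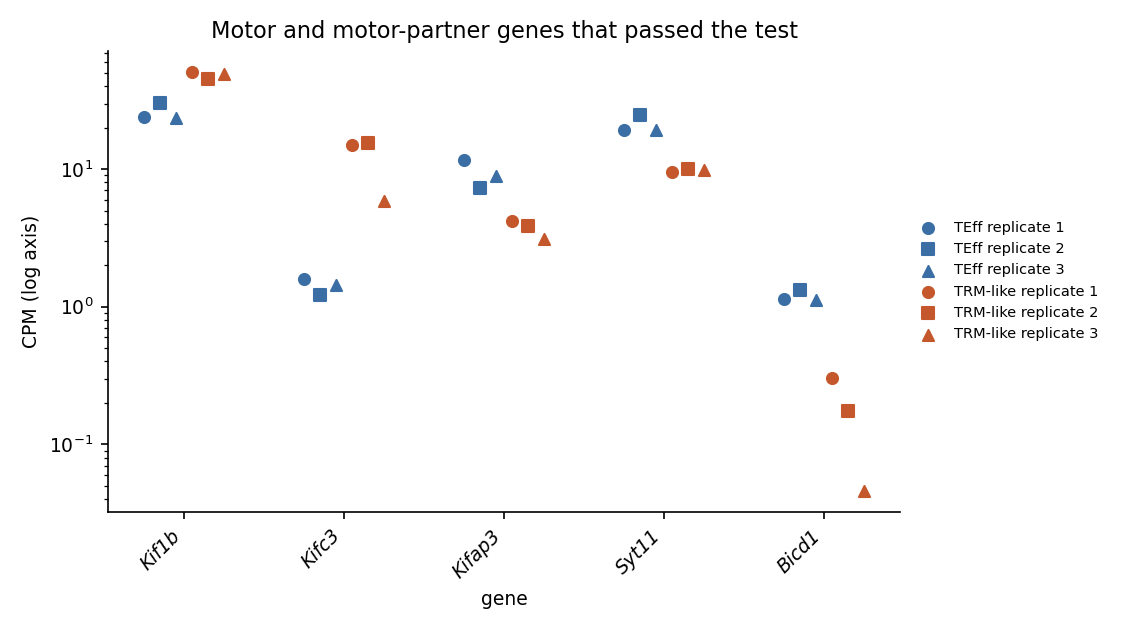
CPM on a log axis in each of the 6 samples (blue TEff, orange TRM-like, one symbol per replicate number) for Kif1b and for the 4 genes of the transport and dynein lists that passed the test. Kif1b and Kifc3 are higher in all 3 TRM-like samples, and Kifap3, Syt11, and Bicd1 are lower in all 3.

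The mitotic kinesins were present at high levels in both groups, and with all 6 samples 0 of 7 passed the test. DESeq2 and limma-voom also called 0 of 7, and under each of the 3 tools 0 of 7 had an unadjusted p below 0.05. In the main edgeR fit, 3871 of all 26154 genes tested had such a p. In edgeR without a filter on low counts, 4 of 7 mitotic kinesins had one, and the number over all genes was not counted for that fit. That unfiltered fit took the spread of each gene from the trend over genes and gave the gene's own spread no weight. In the main fit, all 7 had negative log2 fold changes, between -0.44 and -0.14 with a median of -0.37, beside 0.02 over all genes tested. Their levels lay in a high and a low range that did not follow the groups, with TRM-like replicates 1 and 2 and TEff replicate 2 in the low range.

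Kif11 encodes Eg5, the motor that pushes spindle poles apart. It had 432, 292, and 445 CPM in TEff and 220, 196, and 455 CPM in TRM-like samples. TRM-like replicate 3 was the highest of the 6 and the groups overlapped. The means were 390 ± 84.9 CPM in TEff and 290 ± 143 CPM in TRM-like cells (SD, n = 3 each), with a log2 fold change of -0.42 (SE 0.32, edgeR adjusted p = 0.606). Without TRM-like replicate 3, the log2 fold change of Kif11 was -0.91 with an edgeR adjusted p of 0.00158.

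Kif15, a spindle motor that can stand in for Eg5, had 216, 142, and 211 CPM in TEff and 110, 100, and 209 CPM in TRM-like samples. Kif4, a chromokinesin that acts with PRC1 at the central spindle, had 132, 85.2, and 129 CPM in TEff and 78.2, 72.7, and 141 CPM in TRM-like samples. Kif18b, a plus-end motor that works with the depolymerase MCAK, had 83.7, 56.2, and 76.4 CPM in TEff and 45.7, 46.2, and 75.5 CPM in TRM-like samples. In each, as in Kif11, the 3 lowest samples were TRM-like replicates 1 and 2 and TEff replicate 2, with TRM-like replicate 3 near TEff replicates 1 and 3. Kif2c, which encodes MCAK, the depolymerase at centromeres, had 103, 69.9, and 103 CPM in TEff and 62.7, 58.4, and 87.4 CPM in TRM-like samples. The log2 fold changes with all samples were -0.44 for Kif15, -0.25 for Kif4, -0.37 for Kif18b, and -0.41 for Kif2c, and their adjusted p-values lay between 0.421 and 0.748.

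The central spindle motors Kif20a and Kif23 had, with Kif4, the smallest fold changes of the mitotic set. Kif20a, which brings the chromosomal passenger complex to the central spindle, had 132, 74.8, and 134 CPM in TEff and 77.5, 74.9, and 125 CPM in TRM-like samples. Kif23, the motor of centralspindlin, had 90.6, 69.5, and 96.9 CPM in TEff and 67.7, 63.0, and 103 CPM in TRM-like samples. TEff replicate 2 was as low as TRM-like replicates 1 and 2 in Kif20a and close to them in Kif23. The log2 fold changes were -0.30 (SE 0.27, adjusted p = 0.679) for Kif20a and -0.14 (SE 0.21, adjusted p = 0.822) for Kif23.

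**Figure D2:**
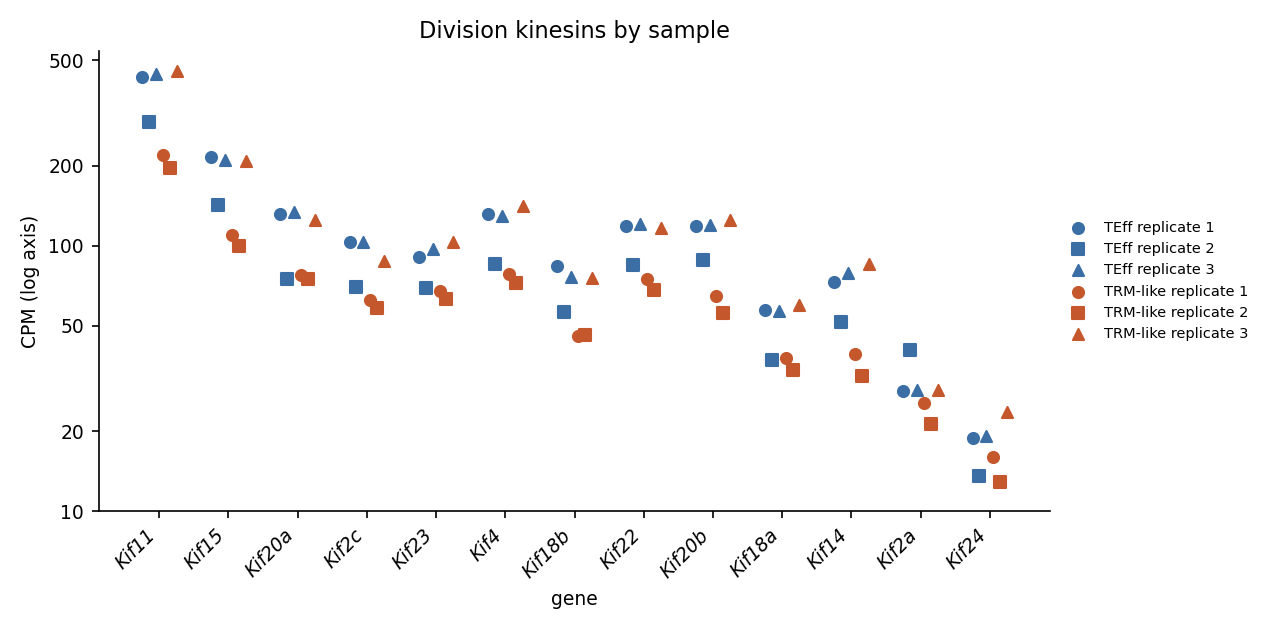
CPM on a log axis in each of the 6 samples for the 7 mitotic kinesins (Kif11 to Kif18b) and 6 other division kinesins, with blue for TEff, orange for TRM-like, and one symbol per replicate number. In every mitotic kinesin the 3 lowest points are TRM-like replicates 1 and 2 and TEff replicate 2. The orange triangle of TRM-like replicate 3 sits near the high TEff points, except in Kif2c, where it lies between the high and the low points at 87.4 CPM.

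Of the other division kinesins, 5 of 6 had the same sample order, and 0 of the 6 tested passed under edgeR, DESeq2, or limma-voom. An unadjusted p below 0.05 was found for 0 under these 3 tools and for 3 in edgeR without a filter. Among all 26154 genes tested in the main edgeR fit, 3871 had such a p. Kif20b, a motor of the midbody, had 119, 88.8, and 120 CPM in TEff and 64.7, 55.8, and 125 CPM in TRM-like samples. Kif14, which acts with citron kinase in cytokinesis, had 73.3, 51.7, and 79.3 CPM in TEff and 39.2, 32.3, and 85.3 CPM in TRM-like samples. In both genes TRM-like replicate 3 was the highest sample and the other TRM-like replicates the lowest. Kif22, a chromokinesin, had 119, 85, and 121 CPM in TEff and 75, 68.4, and 117 CPM in TRM-like samples. Kif18a, which aligns chromosomes, had 57.2, 37.2, and 56.9 CPM in TEff and 37.7, 34, and 59.9 CPM in TRM-like samples. Their groups overlapped as well, with log2 fold changes of -0.32 (Kif22, adjusted p = 0.581) and -0.20 (Kif18a, adjusted p = 0.766). Kif24, a centriole kinesin, had 18.9, 13.6, and 19.2 CPM in TEff and 16, 12.9, and 23.7 CPM in TRM-like samples, with a log2 fold change of 0.03 (adjusted p = 0.968). The log2 fold changes of Kif20b and Kif14 with all samples were -0.41 and -0.38 (adjusted p = 0.575 and 0.672).

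Kif2a was the exception to the sample order among the division kinesins. This depolymerase, which also acts outside mitosis, had 28.3, 40.6, and 28.6 CPM in TEff and 25.5, 21.3, and 28.6 CPM in TRM-like samples. TEff replicate 2 was its highest sample, where it was among the lowest for the other division kinesins. Its log2 fold change was -0.37 (SE 0.18, adjusted p = 0.404).

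Without TRM-like replicate 3, 12 of 31 tested kinesins passed the threshold, 9 of them lower and 3 higher in TRM-like cells, where 7.67% of the 25478 genes tested were lower and 6.38% were higher. The lower genes were 5 mitotic kinesins (Kif11, Kif15, Kif2c, Kif4, and Kif18b), the division kinesins Kif14, Kif20b, and Kif22, and Kif7. The log2 fold change was then -0.94 for Kif14 (adjusted p = 0.00161), -0.86 for Kif15 (adjusted p = 0.00221), and -0.87 for Kif20b (adjusted p = 0.000919). Kif20a (log2 fold change -0.58, adjusted p = 0.0542) and Kif23 (log2 fold change -0.40, adjusted p = 0.0605) still missed the threshold, Kif23 in size as well as in p. The higher genes were Kif1b, Kif19a, and Kif26b. Leaving out any other single sample gave 0 of 7 mitotic kinesins past the threshold.

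**Figure D3:**
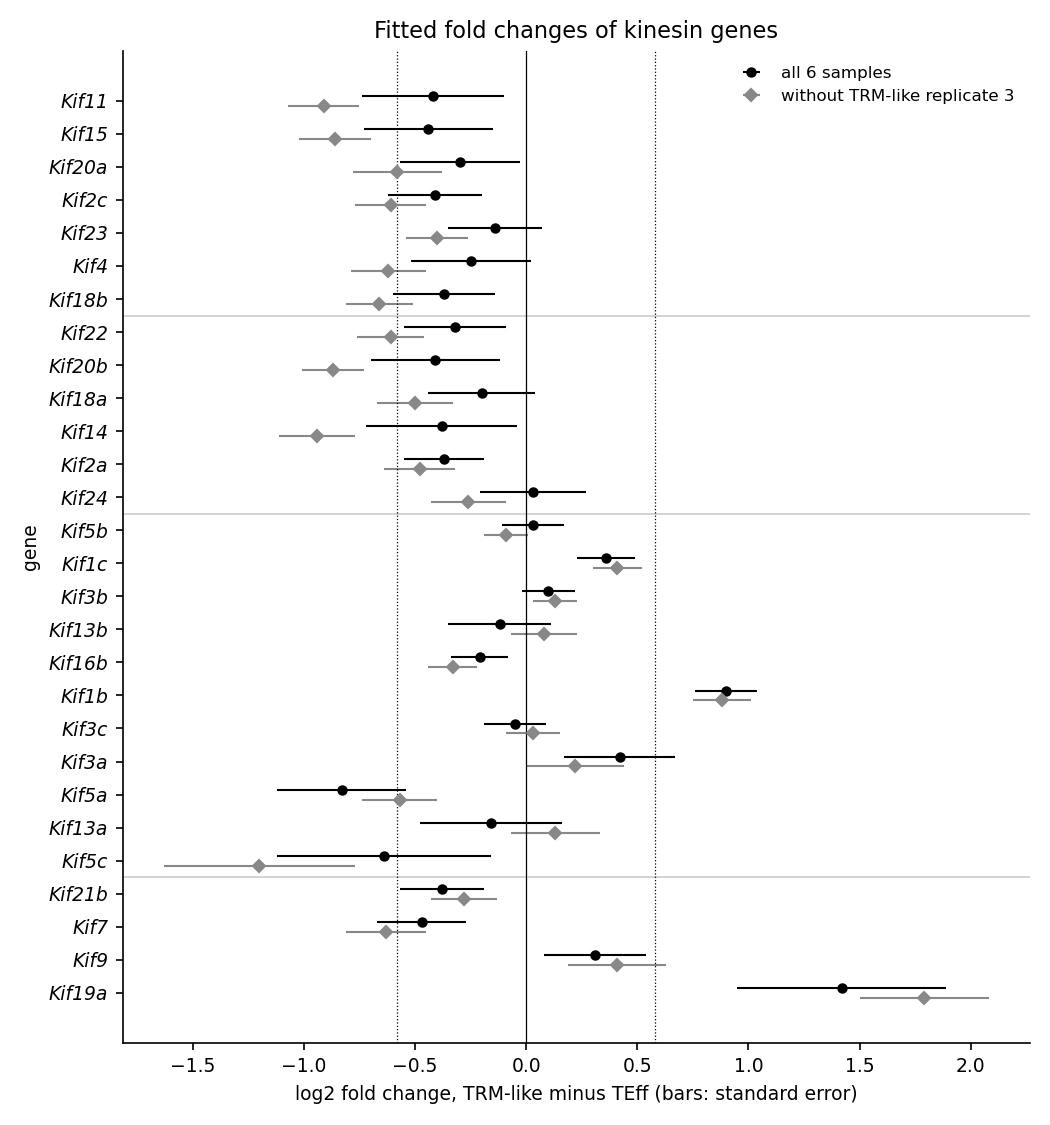
Log2 fold change of TRM-like against TEff (x axis) with its standard error for the 28 kinesins at or above a mean of 1 CPM, ordered from mitotic to other division, transport, and remaining kinesins, from all 6 samples (black) and without TRM-like replicate 3 (grey). Dotted lines mark the log2 fold change of 0.58 used as threshold in each direction. Most division kinesins shift to the left without that sample, for Kif11 from -0.42 to -0.91, while Kif1b stays at 0.90 and 0.88.

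The same sample order was looked for in every well-counted gene after it had been noticed in the mitotic kinesins. TRM-like replicates 1 and 2 and TEff replicate 2 were the 3 lowest samples in 7 of 7 mitotic kinesins, in 5 of 6 other division kinesins, and in 2 of 10 transport kinesins. Of the 14822 genes that reached 10 counts in each of the 6 samples, 3317 (22.4%) had that order. Of 30 genes that work with the division kinesins, such as Mki67, Aurkb, and Racgap1, 29 had it, and the exception was Cit.

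The division partner genes had the pattern of the motors. Mki67, the proliferation marker that coats mitotic chromosomes, had 1860, 1410, and 1870 CPM in TEff and 923, 814, and 1910 CPM in TRM-like samples. Racgap1, the partner of Kif23 in centralspindlin, had 176, 140, and 164 CPM in TEff and 115, 118, and 209 CPM in TRM-like samples. Mybl2, which encodes the factor that joins the complex bound to CHR elements, had 37.5, 20.6, and 32.5 CPM in TEff and 10.7, 11.3, and 34.1 CPM in TRM-like samples. In all 3 genes TRM-like replicate 3 lay in or above the range of the TEff samples. Cit, which encodes the citron kinase bound by Kif14, had 50.6, 52.9, and 47.4 CPM in TEff and 43.4, 32.8, and 50.1 CPM in TRM-like samples (log2 fold change -0.26, adjusted p = 0.548). Of the 30 partners, 0 passed with all 6 samples, with 0 at an unadjusted p below 0.05 under edgeR, DESeq2, or limma-voom. That p was reached by 3871 of all 26154 genes tested in the main edgeR fit. In edgeR without a filter, Mybl2 passed as lower (adjusted p = 0.00348) and 9 partners had an unadjusted p below 0.05. Each gene's own spread carried no weight in that unfiltered fit. All 30 log2 fold changes were negative, with a median of -0.27, beside 12699 negative of all 26154 genes tested and a median of 0.02. Without TRM-like replicate 3, 17 partners passed as lower, where 7.67% of the 25478 genes tested did.

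On the mean log2 CPM scale, the mitotic kinesins were at 0.20, -0.39, and 0.19 relative to their TEff mean in TEff replicates 1, 2, and 3 and at -0.58, -0.68, and 0.18 in the TRM-like replicates. The division partners were at 0.17, -0.35, and 0.18 in TEff and -0.55, -0.66, and 0.28 in TRM-like samples. The 11 transport kinesins at or above a mean of 1 CPM stayed between -0.11 and 0.07 in all 6 samples. Taken as the mean log2 CPM of mitotic minus these transport kinesins, the difference was 3.03, 2.37, and 3.09 in TEff and 2.20, 2.22, and 3.12 in TRM-like samples, so that the groups overlapped through TRM-like replicate 3.

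**Figure D4:**
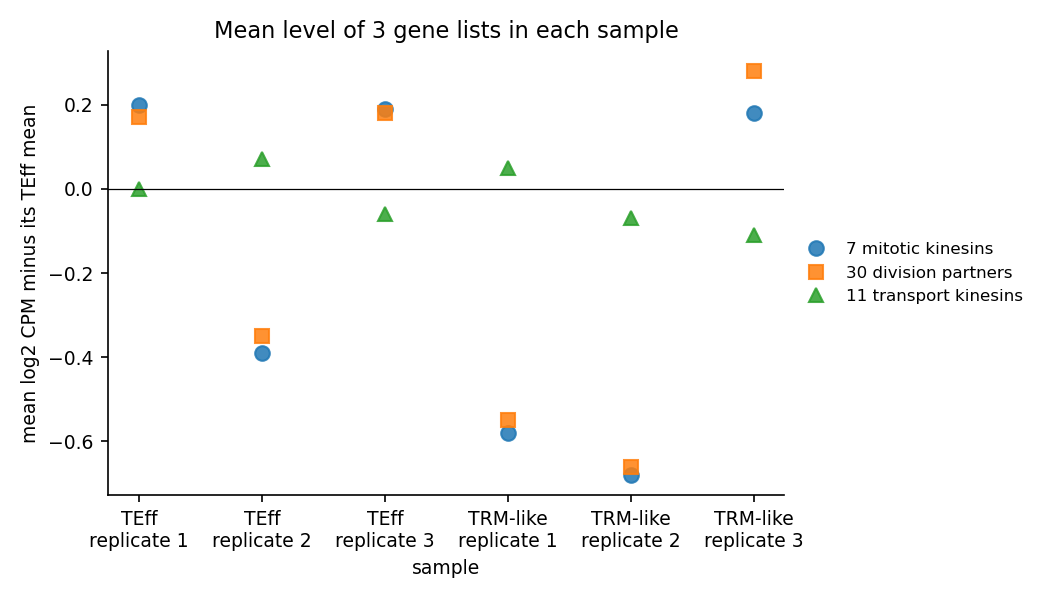
Mean log2 CPM of 3 gene lists in each sample, minus the mean of the list over the TEff samples (y axis), for the 7 mitotic kinesins, 30 division partners, and 11 transport kinesins. Mitotic kinesins and division partners lie together in every sample and are low in TEff replicate 2 and TRM-like replicates 1 and 2, and the transport kinesins stay between -0.11 and 0.07.

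Of the transport kinesins, Kif1b passed the test and Kif5a had a fold change of similar size that did not. Of 13, 12 were tested, 1 was higher and 0 were lower, beside 1.52% and 1.48% of all genes tested. The median log2 fold change of the transport kinesins was -0.09, with 5 positive and 7 negative values. Kif5b, the ubiquitous conventional kinesin heavy chain that moves mitochondria and lytic granules, had 184, 166, and 177 CPM in TEff and 162, 170, and 207 CPM in TRM-like samples. It was the most abundant transport kinesin per length in these cells, and its groups overlapped (176 ± 9.25 and 180 ± 24.1 CPM, SD, n = 3 each, log2 fold change 0.03, SE 0.14, adjusted p = 0.947). Kif3b, a motor subunit of heterotrimeric kinesin-2, had 41.4, 40.4, and 39.1 CPM in TEff and 44.1, 44.6, and 41.2 CPM in TRM-like samples. Its usual partner Kif3a had 3.61, 2.58, and 4.09 CPM in TEff and 3.88, 4.15, and 5.72 CPM in TRM-like samples. Per gene length Kif3b averaged 7.42 FPKM and Kif3a 1.24 FPKM, and both had overlapping groups. Another kinesin-2 motor subunit, Kif3c, at 2.19 FPKM, had 16.3, 15.4, and 14.6 CPM in TEff and 15.6, 16.1, and 13 CPM in TRM-like samples (log2 fold change -0.05, adjusted p = 0.911). However, 34.6% of the exonic bases of Kif3c overlap a long noncoding RNA on the opposite strand.

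Kif1c, a vesicle motor related to Kif1b, had 54.9, 59.6, and 50.8 CPM in TEff and 73.4, 74.3, and 65.0 CPM in TRM-like samples. The groups did not overlap, but the log2 fold change of 0.36 (SE 0.13) had an adjusted p of 0.220. Kif5a, a conventional kinesin heavy chain known mainly from neurons, had 6.54, 5.62, and 5.97 CPM in TEff and 4.06, 4.15, and 1.94 CPM in TRM-like samples. Here too the groups were apart, with TRM-like replicate 3 the lowest, and the log2 fold change was -0.83 (SE 0.29, adjusted p = 0.207). The related Kif5c had 1.19, 1.67, and 1.05 CPM in TEff and 0.829, 0.306, and 1.38 CPM in TRM-like samples (log2 fold change -0.64, SE 0.48, adjusted p = 0.611).

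Endosomal and other vesicle motors varied within both groups. Kif13b had 56.9, 78.1, and 52.8 CPM in TEff and 68.9, 64.3, and 39.6 CPM in TRM-like samples, so that its highest level was in TEff replicate 2 and its lowest in TRM-like replicate 3. Kif13a, which carries recycling endosomes, had 3.93, 5.26, and 3.81 CPM in TEff and 4.84, 4.72, and 2.08 CPM in TRM-like samples, with the same highest and lowest samples. Kif16b, a motor of early endosomes, had 41.7, 39.9, and 43 CPM in TEff and 33.5, 33, and 40.9 CPM in TRM-like samples. The log2 fold changes were -0.12 for Kif13b, -0.16 for Kif13a, and -0.21 for Kif16b, with adjusted p-values from 0.530 to 0.872.

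**Figure D5:**
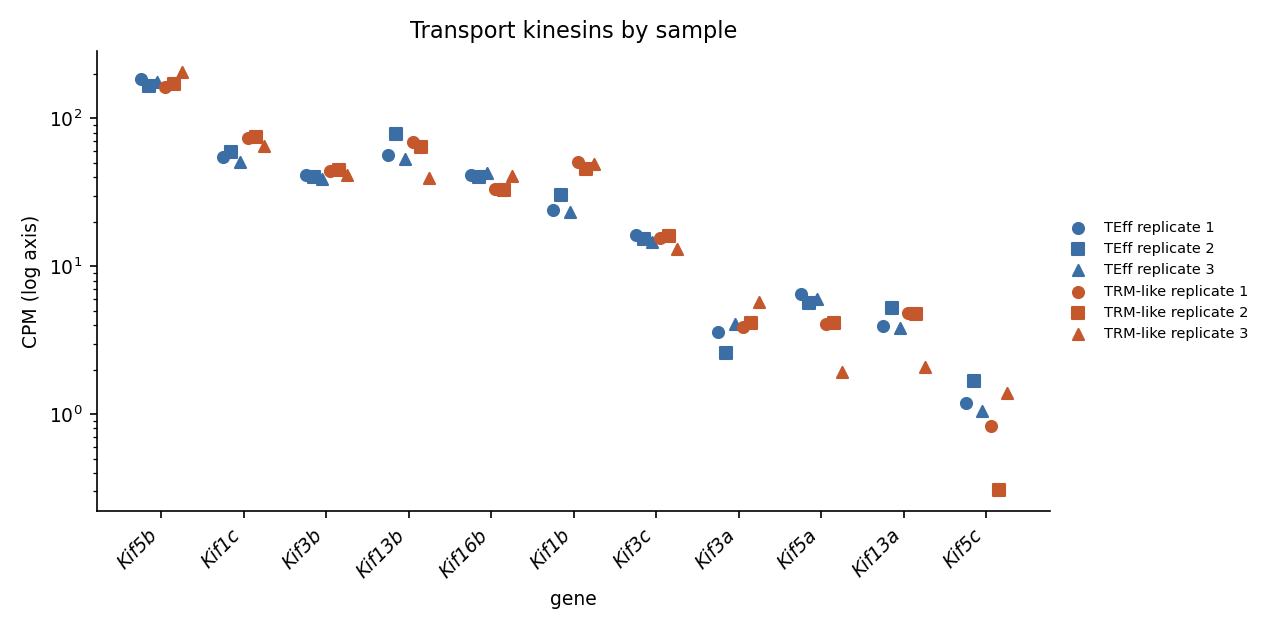
CPM on a log axis in each of the 6 samples for the 11 transport kinesins at or above a mean of 1 CPM, with blue for TEff, orange for TRM-like, and one symbol per replicate number. Kif5b is the highest at 162 to 207 CPM with overlapping groups, Kif1b and Kif1c are higher in all 3 TRM-like samples, and Kif5a is lower in all 3.

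Kif21b, which slows microtubule growth and is known from the T cell synapse, had 275, 388, and 260 CPM in TEff and 259, 250, and 201 CPM in TRM-like samples. Per gene length it was level with Kif5b (29.9 and 29.5 FPKM), and it took from 8.69% to 19.9% of all kinesin counts in a sample. All 3 TRM-like samples were below all 3 TEff samples, but the nearest values, 259 and 260 CPM, were close (log2 fold change -0.38, SE 0.19, adjusted p = 0.402). TEff replicate 2, low for the mitotic kinesins, was the highest sample for Kif21b. Kif7, a regulator of Hedgehog signalling, had 8.37, 6.58, and 8.40 CPM in TEff and 4.62, 5.50, and 6.78 CPM in TRM-like samples (log2 fold change -0.47, adjusted p = 0.332).

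Among the 33 tested kinesins, 5 had every TRM-like sample above every TEff sample (Kif1b, Kif1c, Kif9, Kif26b, and Kif27) and 2 had every TRM-like sample below (Kif21b and Kif5a). Over all genes tested, 10.6% were arranged in the first way and 9.71% in the second. Kif27 had 0 counts in every TEff sample and 2, 1, and 1 counts in the TRM-like samples. It passed the filter only through the group where it was higher, so its arrangement was fixed in advance. Kif26b rested on few counts, 1, 1, and 0 in TEff and 8, 10, and 2 in TRM-like samples. Kif9, a ciliary kinesin, had 2.33, 2.33, and 2.10 CPM in TEff and 2.83, 3.19, and 2.35 CPM in TRM-like samples, with a log2 fold change of 0.31 and an adjusted p of 0.604.

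Several cilia and neuron kinesins had counts only or mainly in TRM-like replicates 1 and 2. Kif19a, a ciliary depolymerase, had 0.594, 0.658, and 0.718 CPM in TEff and 2.18, 2.40, and 0.692 CPM in TRM-like samples. TRM-like replicate 3 was at the TEff level, and the log2 fold change was 1.42 (SE 0.47, adjusted p = 0.188), or 1.79 without that sample (adjusted p = 0.000847). Kif26b, a kinesin-like signalling protein, had 1, 1, and 0 counts in TEff and 8, 10, and 2 counts in TRM-like samples. The 7 kinesins that were not tested, Kif1a, Kif2b, Kif6, Kif12, Kif21a, Kif26a, and Kif28, had 0 counts in every TEff sample and in TRM-like replicate 3. Kif21a had 4 and 14 counts and Kif1a 5 and 5 in TRM-like replicates 1 and 2.

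The same 2 samples had counts in 956 and 1014 of 1547 olfactory and vomeronasal receptor genes, which T cells are not known to use, against 46 to 55 in the other 4 samples. The mean level of those receptor genes was 0.0243 and 0.0259 FPKM there and 0.00281 to 0.00415 FPKM elsewhere. Kif19a lay above this at 0.173 to 0.700 FPKM. Kif26b had a highest value of 0.0308 FPKM. Its TRM-like mean of 0.0207 FPKM includes TRM-like replicate 3, where the receptor genes were at 0.00285 FPKM, so it is not matched to the 2 values above. Kif21a, Kif12, Kif6, and Kif2b reached at most 0.0948, 0.0579, 0.0495, and 0.0389 FPKM in any sample. Kif1a, Kif26a, Kif27, and Kif28 reached at most 0.0252, 0.0189, 0.017, and 0.0123 FPKM. The part of this general low-level signal in the values of the low kinesins was not tested. Kif17, Kif19b, and Kif27 were low in all samples, with at most 4 counts each.

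The genes that work with transport motors were read from the same fit. Of 20 kinesin partners and related motors, 1 was higher and 2 were lower, with a median log2 fold change of 0.03. The shares over all genes tested were 1.52% higher and 1.48% lower. Kifc3, a motor of the C-terminal kinesin family that moves toward minus ends, had 1.60, 1.21, and 1.44 CPM in TEff and 14.9, 15.5, and 5.86 CPM in TRM-like samples. It was higher in all 3 TRM-like samples, with TRM-like replicate 3 between the groups, and rose with a log2 fold change of 3.09 (SE 0.38, adjusted p = 0.00343). It passed with each sample left out in turn, at log2 fold changes from 2.86 to 3.40. Syt11, a vesicle-trafficking synaptotagmin, had 19.3, 24.6, and 19.1 CPM in TEff and 9.55, 10, and 9.87 CPM in TRM-like samples and fell (log2 fold change -1.10, SE 0.15, adjusted p = 0.00569), a call that was also kept with each sample left out.

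Kifap3 encodes KAP3, the cargo-binding subunit that joins Kif3a and Kif3b in kinesin-2. It had 11.6, 7.34, and 8.90 CPM in TEff and 4.19, 3.84, and 3.09 CPM in TRM-like samples, and it fell (log2 fold change -1.32, SE 0.23, adjusted p = 0.0151) where its motor partners had log2 fold changes of 0.42 (Kif3a, adjusted p = 0.516) and 0.10 (Kif3b, adjusted p = 0.750). The Kifap3 call was lost without TEff replicate 1 (adjusted p = 0.107), TEff replicate 3 (0.0855), or TRM-like replicate 2 (0.0597). Kinesin light chain 1, Klc1, which couples cargo to conventional kinesin, lay between 50.8 and 56.3 CPM in all 6 samples. Rab27a and Unc13d, which dock and prime lytic granules, had log2 fold changes of -0.06 and 0.24, and neither passed.

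Dynein, the motor that runs opposite to most kinesins, and its activator dynactin gave 28 tested genes, of which 0 were higher and 1 was lower. The shares over all genes tested were 1.52% higher and 1.48% lower, and the median log2 fold change of the 28 genes was 0.09. The lower gene was Bicd1, a dynein cargo adaptor, at 1.14, 1.32, and 1.11 CPM in TEff and 0.305, 0.175, and 0.0461 CPM in TRM-like samples (log2 fold change -2.71, SE 0.50, adjusted p = 0.0229). The Bicd1 call was lost without any one of the TEff replicates or TRM-like replicate 2, with adjusted p-values from 0.0904 to 0.111. Actr1b, a dynactin filament subunit, had 64.6, 59.1, and 66.4 CPM in TEff and 86.6, 91.9, and 96.9 CPM in TRM-like samples, without overlap, but its log2 fold change of 0.54 was under the threshold (adjusted p = 0.0548). Actr10, another dynactin subunit, had 77.8, 68.4, and 77.9 CPM in TEff and 87.9, 90.7, and 88.5 CPM in TRM-like samples (log2 fold change 0.25, adjusted p = 0.382). Dync1h1, the dynein heavy chain, ranged from 292 to 397 CPM with a log2 fold change of -0.08.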

How the data were processed

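RNA sequencing of 6 OT-I CD8+ T cell samples (3 TEff, 3 TRM-like) was analysed by the groups in the sample labels. Per the submitters' processing notes and the study's methods, reads from stranded total RNA libraries were trimmed with Cutadapt 4.8 and mapped and counted with Rsubread on GENCODE genes of GRCm39. The authors deposited raw counts per gene with gene length, in base pairs and not normalized. The strand setting and the handling of multimapping reads are not given in the sources used here. The study's methods mention a batch without naming it, so none was removed.

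Symbols and positions were read from a more recent GENCODE release on GRCm39, which held 56620 of 57126 gene identifiers. Genes counted at least once in 3 or more samples (a minimum of 1 count) were tested with edgeR 4.0.16 (TMM, glmQLFit and glmQLFTest) in R 4.3.3, with Benjamini-Hochberg adjustment over 26154 genes. The threshold was an adjusted p below 0.05 with an absolute log2 fold change above 0.58. CPM used TMM-scaled libraries, FPKM also the deposited length, and log2 CPM a prior count of 2. The code was tested on simulated data. Alternatives were DESeq2 1.42.0, limma-voom (limma 3.58.1), other scalings and filters, the replicate number as a block, and each sample left out. Depth limits genes under about 10 counts per sample, for which counting error alone is large. Kinesins at or above a mean of 1 CPM were given by sample, those below it by range and count, and from each partner list the 3 genes with the smallest p were named. The values of Kif1a, Kif2b, Kif6, Kif12, Kif21a, Kif26a, Kif26b, Kif27, and Kif28 fall outside this rule and were picked once they had been seen. The same holds for single markers of other cells and for Aurkb, Racgap1, Klc1, Rab27a, Unc13d, and Dync1h1. The members, their roles, and all gene lists were chosen with earlier results of these data known, so no p-value is given over a list.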

Additional observations from a re-analysis of the deposited data

How the results depend on the processing

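With all 6 samples, 786 genes, 1 kinesin (Kif1b), 1 transport kinesin, and 0 mitotic kinesins passed the threshold. Over the left-out samples these counts ran from 263 to 3579 for all genes, from 0 to 12 for kinesins, from 0 to 1 for transport kinesins, and from 0 to 5 for mitotic kinesins. DESeq2 called 1256 genes and 1 kinesin. Without a filter, 1868 of 42234 genes, 4 kinesins (Kif1b, Kif5a, Kif19a, and Kif21a), and 2 transport kinesins passed. The median log2 fold change over that larger set of genes was 0.38, beside 0.02 over the 26154 genes of the main fit. The kinesin values hardly moved, with a mitotic median of -0.37 in both fits and Kif1b at 0.90 in the main fit and 0.89 without a filter. The replicate block gave 2034 genes, 3 kinesins (Kif1b, Kif5a, and Kif19a), and 2 transport kinesins. Under the block, 4 of 7 mitotic kinesins and 13 of 30 division partners had an unadjusted p below 0.05. How many of all genes reached that p under the block was not counted. Mki67 (adjusted p = 0.0389) and Mybl2 (adjusted p = 0.000101) passed as lower. In this fit and in the unfiltered one, the prior degrees of freedom were infinite, against 4.97 in the main fit. The spread of each gene was thus taken from the trend over genes, and its own spread carried no weight. Same-numbered samples correlated at -0.292, 0.309, and 0.389 in their deviations from the group means. With 3 samples per group, these values cannot decide whether same-numbered samples share a mouse, a culture, or a batch. When the block was joined with a minimum of 10 counts per sample, which was chosen after seeing the data, 903 genes and 1 kinesin passed, against 579 genes with that filter alone. With block and filter joined, the prior degrees of freedom were 8.3. The edgeR adjusted p was then 0.199 for Mki67 and 0.121 for Mybl2. The mitotic median log2 fold change stayed between -0.62 and -0.21 and the transport median between -0.14 and 0.05. Among kinesins that did not pass, the sign turned for Kif24 (0.03 with all samples, 0.00 under limma-voom and the block, and -0.26 to 0.21 over the left-out samples). It also turned over the left-out samples for Kif5b (-0.09 to 0.10), Kif13b (-0.27 to 0.08), Kif3c (-0.11 to 0.03), and Kif13a (-0.35 to 0.13). The causes were not tested.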
